A study of Mus musculus with 20 samples.

Results

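Rcan1, calcineurin and the calcineurin-dependent NFAT factors were examined in RNA from whole embryonic mouse hearts at E13.5. The genes were listed by name, with earlier results of these data known. They are the 3 regulators of calcineurin (Rcan1, Rcan2, Rcan3), 3 subunits of calcineurin (Ppp3ca, Ppp3cb, Ppp3r1) and the 4 NFATc transcription factors (Nfatc1, Nfatc2, Nfatc3, Nfatc4), which makes 10 of the 48795 Ensembl genes in the deposited table. All 10 were among the 15304 genes kept by the filter on low values, which asked for an average of 10 or more normalized counts over the hearts.

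The study used mouse genetics to ask which genes cause the heart defects of Dp1Tyb mice, a model of Down syndrome, when they are present in 3 copies. The 20 hearts were from 10 WT, 5 Dp1Tyb and 5 Dp1TybDyrk1a+/+/- embryos, each heart a sample of its own. Dp1Tyb embryos carry Dp(16Lipi-Zbtb21)1TybEmcf, a duplication of the part of chromosome 16 from Lipi to Zbtb21, which holds Rcan1 and Dyrk1a. Dp1TybDyrk1a+/+/- embryos carry the same duplication together with the null allele Dyrk1atm1Mla. Rcan1 is therefore present in 3 copies in both mutant genotypes and in 2 copies in WT, while functional Dyrk1a is present in 3 copies in Dp1Tyb and in 2 in the other genotypes. All mice were on a C57BL/6J background. Dp1TybDyrk1a+/+/- embryos came from a strain of their own, in which the duplication and the null allele are in cis, so strain and Dyrk1a copy number cannot be told apart between these groups. WT embryos were littermates of the mutants, but the labels do not tie WT hearts to litters, and all 10 entered each comparison with WT.

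Calcineurin is a calcium- and calmodulin-dependent protein phosphatase made of a catalytic A subunit and a regulatory B subunit. It dephosphorylates NFATc proteins, which then enter the nucleus and act with partner transcription factors such as GATA4 and MEF2C, whereas kinases including DYRK1A and GSK3B phosphorylate NFATc proteins and favour their export. RCAN1 binds calcineurin and inhibits it, and Rcan1 is itself a transcriptional target of NFAT. In the developing heart NFATc1 is known for its role in the endocardium of the forming valves, and calcineurin-NFAT signalling is also known for cardiac hypertrophy. The values here are mRNA levels and do not measure phosphatase activity or the place of NFATc proteins in the cell.

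Rcan1 (ENSMUSG00000022951) lies on the minus strand of chromosome 16 (chr16:92391951-92466169), and all coordinates here are those of RefSeq on GRCm38.p6. RefSeq places 2 transcription starts in the gene, 66091 bases apart, and the internal start is known for induction by calcineurin and NFAT. The 250 bases before each start are shown because the core of the NFAT binding motif, GGAAA or TTTCC when read on the other strand, sets these starts apart. Both strands were searched for these letters, which cannot overlap each other, and no other motif was searched. Capitals mark matches, and sequences run 5′ to 3′ in the direction of transcription.
Rcan1 upstream start, chr16:92466170-92466419, minus strand: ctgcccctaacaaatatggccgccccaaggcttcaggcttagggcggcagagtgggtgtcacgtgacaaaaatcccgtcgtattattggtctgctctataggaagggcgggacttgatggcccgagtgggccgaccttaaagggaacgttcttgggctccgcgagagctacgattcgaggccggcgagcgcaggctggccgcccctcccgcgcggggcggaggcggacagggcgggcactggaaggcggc
Rcan1 internal start, chr16:92400079-92400328, minus strand: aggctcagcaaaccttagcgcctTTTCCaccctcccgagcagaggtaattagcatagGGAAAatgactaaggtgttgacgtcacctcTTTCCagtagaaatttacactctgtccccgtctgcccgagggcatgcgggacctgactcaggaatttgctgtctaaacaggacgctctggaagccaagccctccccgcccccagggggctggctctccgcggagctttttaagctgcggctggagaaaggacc
The window of the upstream start held 0 matches. That of the internal start held 3, which began 227, 193 and 163 bases before the start. A match describes these letters and is not a measured binding site. Among all 32851 promoter windows of 250 bases, 55.6% held at least 1 match, 21.4% at least 2 and 6.39% at least 3. Windows were at hand for 8 of the 10 genes, 13 windows in all, and 8 windows in 7 genes held a match. Ppp3cb, the first start of Nfatc2 and Nfatc4 also had 3 matches in a window, Rcan2 had 2 in the window of 1 of its 3 starts, and the window of Ppp3r1 had 0. The expression table holds 1 value per gene, so transcripts from the Rcan1 starts were not separated.

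The read depth of the libraries is unknown, because the table holds log2 normalized counts without read totals, and no counting error was computed. Libraries had been run in sequencing lanes 3, 6 and 7, and each lane held hearts of all 3 genotypes. Markers of the labelled tissue were high, with a mean log2 value over 6 cardiomyocyte genes of 15.11 ± 0.16 (SD, n = 10) in WT, against 1.67 ± 0.027 for 3 genes of the skeletal muscle lineage and 3.71 ± 0.051 for 3 liver genes. For 3 lung epithelium genes the WT mean was 3.97 ± 0.13. Of these, Foxa1 (5.89 in WT) and Nkx2-1 (4.86) passed the filter and Sftpc (1.15) did not. Whether the samples held some lung tissue was not tested. The 4 T cell markers, of interest because NFAT is best known in T cells, averaged 0.13 in each genotype and none passed the filter. The mean log2 value of 4 Y-linked genes lay between 9.52 and 9.65 in 12 hearts and between 7.06 and 7.5 in the other 8, and the latter were 3 of 10 WT, 4 of 5 Dp1Tyb and 1 of 5 Dp1TybDyrk1a+/+/- hearts. Fewer cells of a type and less RNA per cell cannot be told apart in whole hearts.

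Dyrk1a, the kinase whose copy number separates the mutant genotypes, was read first as a check of the labels. Its log2 values ran from 11.28 to 11.43 in WT with a mean of 11.37. In Dp1Tyb hearts 1 to 5 they were 11.67, 11.65, 11.66, 11.71 and 11.75, and in Dp1TybDyrk1a+/+/- hearts 1 to 5 they were 11.7, 11.85, 11.78, 11.75 and 11.74. Every mutant heart was above every WT heart. The difference from WT was 0.32 (SE 0.0267, 1.25-fold, adjusted p = 6.22e-08) in Dp1Tyb and 0.39 (SE 0.0267, 1.31-fold, adjusted p = 2.18e-09) in Dp1TybDyrk1a+/+/-. Between Dp1Tyb and Dp1TybDyrk1a+/+/- it was -0.07 (95% interval -0.14 to -0.01, adjusted p = 0.209). The null allele lacks some exons and keeps others, and a gene total takes in reads from the exons it keeps, so this value does not check the loss of the functional copy.

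Rcan1 was higher in both genotypes with the duplication. The 10 WT hearts had log2 values from 11.19 to 11.48 with a median of 11.3. Dp1Tyb hearts 1 to 5 had 11.59, 11.64, 11.57, 11.74 and 11.76. Dp1TybDyrk1a+/+/- hearts 1 to 5 had 11.66, 11.57, 11.78, 11.76 and 11.76. All 10 mutant hearts lay above the highest WT heart, and the mutant genotypes overlapped each other.

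In Dp1Tyb, Rcan1 rose by 0.34 on the log2 scale over WT (SE 0.0472, 1.26-fold with a 95% interval of 1.18 to 1.35, limma adjusted p = 0.000121). In Dp1TybDyrk1a+/+/- it rose by 0.38 (SE 0.0472, 1.30-fold with an interval of 1.22 to 1.39, adjusted p = 2.34e-05). The exact two-sided permutation test gave p = 0.000666 for each, the smallest value that 3003 regroupings of the hearts allow. Between Dp1Tyb and Dp1TybDyrk1a+/+/- the difference was -0.05 with a 95% interval of -0.16 to 0.07 (adjusted p = 0.677, exact permutation p = 0.365), and its size was not resolved beyond that interval. Within lanes 3, 6 and 7 the difference from WT was 0.387, 0.347 and 0.21 in Dp1Tyb and 0.349, 0.449 and 0.319 in Dp1TybDyrk1a+/+/-, and lane 7 held 1 Dp1Tyb and 2 WT hearts.

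Rcan1 was the only 1 of the 10 genes to pass an adjusted p of 0.05 in Dp1Tyb versus WT, where 3.08% of the 15304 genes tested passed and 1.81% passed as increased. It was again the only 1 in Dp1TybDyrk1a+/+/- versus WT, where 0.712% passed and 0.627% passed as increased. In Dp1Tyb versus Dp1TybDyrk1a+/+/-, limma called 0 of the 10, against 1.16% of all genes, and 2 of the 10 had an unadjusted p under 0.05, a share near the 18.5% of all genes that did. The groups did not overlap for Rcan1 alone in each comparison with WT, as they did not for 2.63% and 0.64% of all genes, and for 0 of the 10 in Dp1Tyb versus Dp1TybDyrk1a+/+/-, against 5.65%. The median log2 fold change over the 10 genes was 0.00938, 0.0258 and -0.0449 in these comparisons, beside -0.00187, -0.003 and 0.00278 over all genes tested. The comparisons share the WT or the Dp1Tyb hearts.

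**Figure D1:**
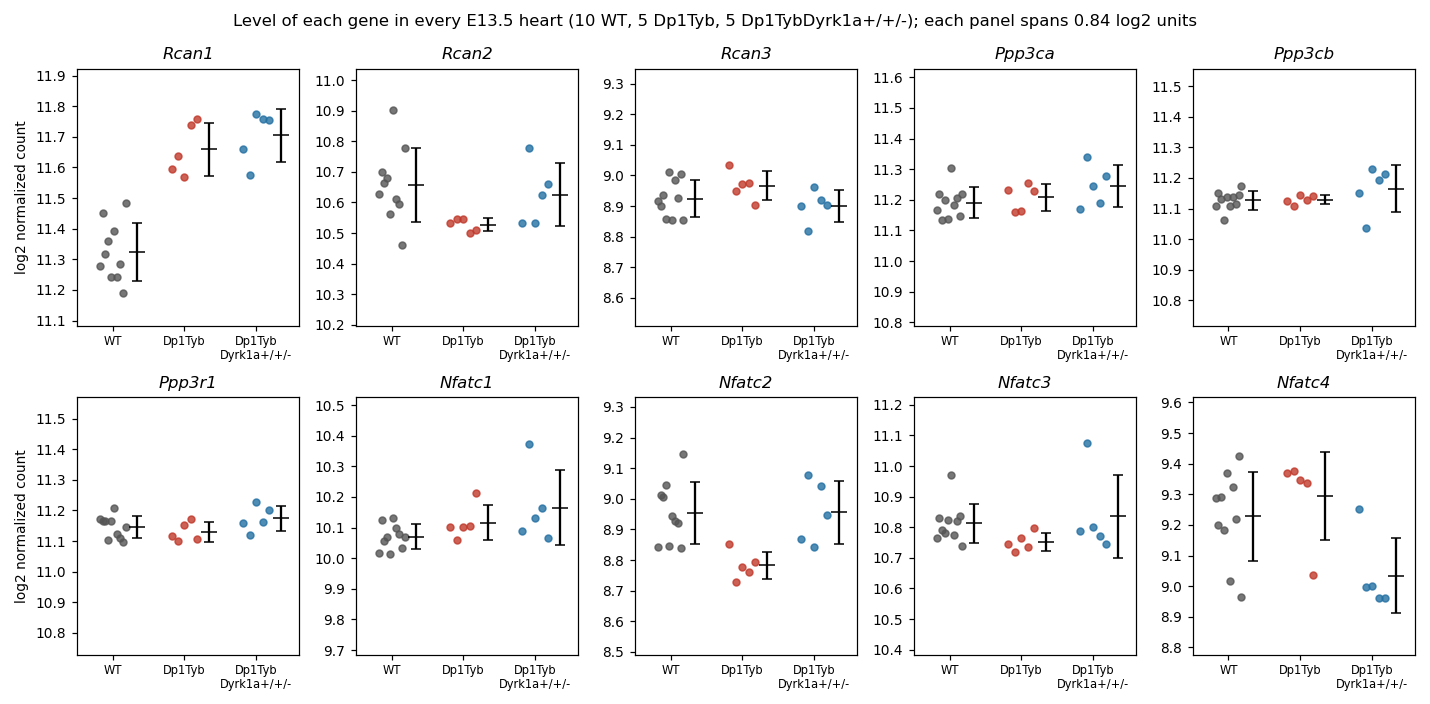
Log2 normalized count (vertical axes, each spanning the same range of log2 units) of the 10 genes in every heart by genotype (horizontal axes), with mean and SD beside the points. All 10 mutant hearts lie above the WT hearts for Rcan1, and for the other 9 genes the groups overlap.

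**Figure D2:**
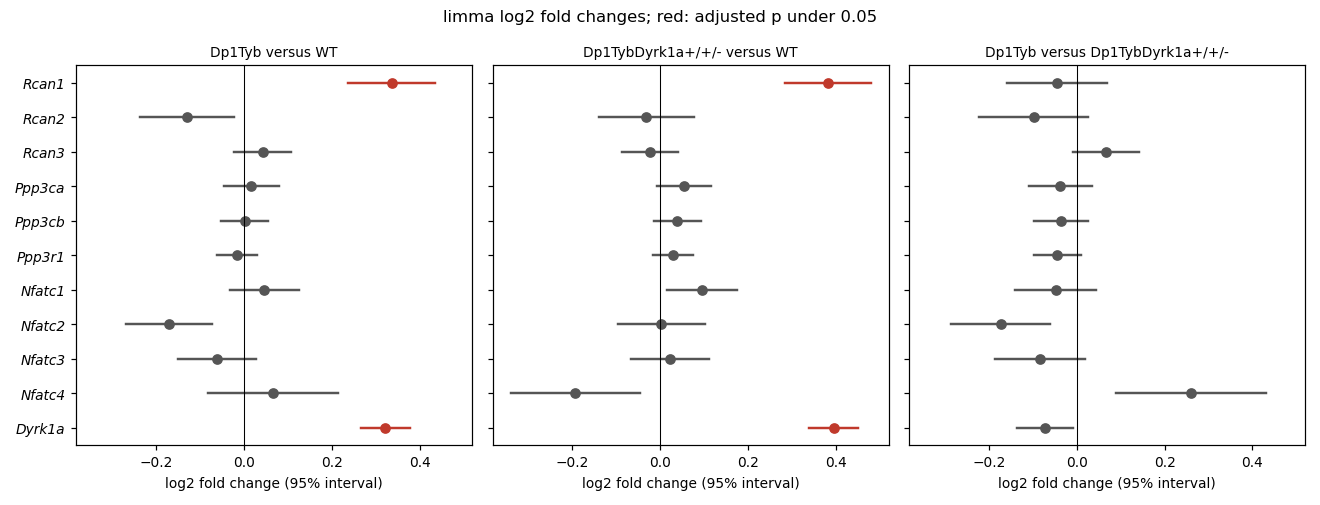
Log2 fold change (horizontal axes) with its 95% interval from limma for the 10 genes and Dyrk1a in the 3 comparisons, in red where the adjusted p was under 0.05. Rcan1 and Dyrk1a stand at 0.34 and 0.32 in Dp1Tyb versus WT and at 0.38 and 0.39 in Dp1TybDyrk1a+/+/- versus WT.

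The rise of Rcan1 was set beside that of its neighbours in the duplication. The table held 232 genes from Lipi to Zbtb21, of which 95 were tested, and 75.8% of these were called increased in Dp1Tyb and 72.6% in Dp1TybDyrk1a+/+/-, while 2.11% were called increased in Dp1Tyb versus Dp1TybDyrk1a+/+/-. By size of change Rcan1 ranked 34 of 95 in Dp1Tyb versus WT and 26 of 95 in Dp1TybDyrk1a+/+/- versus WT. The median three-copy gene changed by 0.30 in Dp1Tyb and by 0.33 in Dp1TybDyrk1a+/+/-, and among the 71 averaging 100 or more normalized counts the medians were 0.33 and 0.37. With both mutant genotypes averaged against WT, Rcan1 (0.36, adjusted p = 1.99e-06) was again the only 1 of the 10 genes called, where 1.35% of all genes passed (1.12% as increased, 0.235% as decreased) and 76.8% of the three-copy genes rose. There it ranked 35, directly behind Chaf1b and Dyrk1a and ahead of Cryzl1, all 4 at 0.36. The upper bounds of the 95% intervals of Rcan1, 1.35-fold and 1.39-fold, lay under the copy ratio of 1.5. This shortfall was not particular to Rcan1, because the estimates of all 95 tested three-copy genes lay under that ratio. The largest were 0.50 on the log2 scale in Dp1Tyb and 0.53 in Dp1TybDyrk1a+/+/-. Among the 71 genes averaging 100 or more normalized counts the median changes were 1.26-fold and 1.29-fold. The cause of the shortfall was not tested. The deposited values are pulled towards the mean of each gene at low counts, and how far this acts on genes at the level of Rcan1 was not tested.

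**Figure D3:**
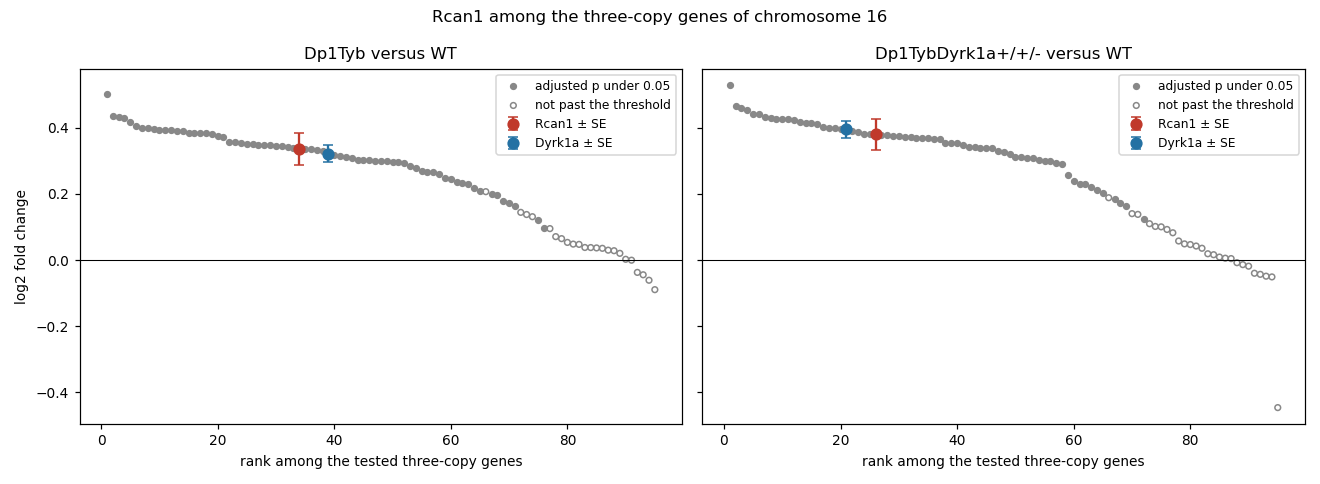
Log2 fold change against WT (vertical axes) of the 95 tested three-copy genes in order of size (horizontal axes) for Dp1Tyb and Dp1TybDyrk1a+/+/-, with SE bars for Rcan1 and Dyrk1a. Rcan1 stands at rank 34 and 26, close to Dyrk1a in each genotype.

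Rcan2 and Rcan3, the paralogues of Rcan1 that also bind calcineurin, did not pass the threshold in any comparison. Rcan2 (chr17:43801352-44039516, plus strand) had log2 values from 10.46 to 10.9 in WT with a median of 10.65. Dp1Tyb hearts 1 to 5 had 10.53, 10.55, 10.55, 10.5 and 10.51, all under the WT median and within the WT range. Dp1TybDyrk1a+/+/- hearts had 10.53, 10.78, 10.53, 10.63 and 10.66. The difference for Dp1Tyb was -0.13 from WT (0.914-fold, 95% interval 0.849 to 0.985, adjusted p = 0.212, exact permutation p = 0.0167) and -0.10 from Dp1TybDyrk1a+/+/- (adjusted p = 0.384), and Dp1TybDyrk1a+/+/- differed from WT by -0.03 (adjusted p = 0.862). With the Y-linked mean as a covariate the Dp1Tyb difference of Rcan2 was -0.0891 (adjusted p = 0.627). Rcan3 (chr4:135412308-135433871, minus strand) lay between 8.82 and 9.03 in all 20 hearts, with a difference from WT of 0.04 in Dp1Tyb and of -0.02 in Dp1TybDyrk1a+/+/-, and of 0.07 between the mutant genotypes.

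None of the 3 calcineurin subunits passed the threshold in any comparison. Ppp3ca (chr3:136669714-136937727, plus strand) and Ppp3cb (chr14:20499364-20546573, minus strand) encode the alpha and beta catalytic subunits, and Ppp3r1 (chr11:17159298-17200380, plus strand) encodes the regulatory B subunit. In Dp1Tyb versus WT their log2 differences were 0.02 (95% interval -0.05 to 0.08) for Ppp3ca, 0.00 (-0.05 to 0.06) for Ppp3cb and -0.02 (-0.06 to 0.03) for Ppp3r1. In Dp1TybDyrk1a+/+/- versus WT they were 0.05 (-0.01 to 0.12), 0.04 (-0.02 to 0.09) and 0.03 (-0.02 to 0.08) in the same order. These intervals do not reach the change of Rcan1 in either genotype. In Dp1Tyb versus Dp1TybDyrk1a+/+/- all 3 subunits had differences of -0.04, with adjusted p of 0.575, 0.522 and 0.359.

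Among the NFATc factors, Nfatc2 came closest to the threshold. Nfatc2 (chr2:168476410-168601657, minus strand) encodes the factor also called NFAT1, known from T cells and other lineages. Its log2 values ran from 8.84 to 9.15 in WT with a median of 8.94. Dp1Tyb hearts 1 to 5 had 8.85, 8.73, 8.78, 8.76 and 8.79, and Dp1TybDyrk1a+/+/- hearts had 8.87, 9.08, 8.84, 9.04 and 8.95. Hearts 2 to 5 of Dp1Tyb lay under every WT and every Dp1TybDyrk1a+/+/- heart, while heart 1 lay within both groups.

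The Dp1Tyb difference of Nfatc2 was -0.17 from WT (SE 0.0472, 0.888-fold, 95% interval 0.83 to 0.951, adjusted p = 0.052, exact permutation p = 0.00266). It was also -0.17 from Dp1TybDyrk1a+/+/- (adjusted p = 0.107, exact permutation p = 0.0159), and Dp1TybDyrk1a+/+/- differed from WT by 0.00 (95% interval -0.10 to 0.10). Within lanes 3, 6 and 7 the Dp1Tyb difference from WT was -0.194, -0.141 and -0.183. The adjusted p moved across the threshold with the settings, to 0.0432 with lane as a covariate and to 0.0319 with WT and Dp1Tyb hearts alone, but to 0.229 with the Y-linked mean as a covariate. The mean of the 6 cardiomyocyte markers, of which 0 were called, ran from 14.88 to 15.2 in Dp1Tyb, from 14.92 to 15.48 in WT and from 15.03 to 15.44 in Dp1TybDyrk1a+/+/-. With that mean as a covariate the difference was -0.121 from WT (adjusted p = 0.0748) and -0.0951 from Dp1TybDyrk1a+/+/- (adjusted p = 0.396), and its part in the result was not tested beyond this. Among these 6 markers Ttn varied most and so weighs most in their mean. Its SD was 0.46 in WT, 0.31 in Dp1Tyb and 0.66 in Dp1TybDyrk1a+/+/-, against at most 0.19 for the others.

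Nfatc4 (chr14:55824795-55833943, plus strand), the factor also called NFAT3, which is known in heart for its binding to GATA4, had its largest difference between the mutant genotypes. WT hearts ranged from 8.97 to 9.43 with a median of 9.25. Dp1Tyb hearts 1 to 5 had 9.37, 9.38, 9.35, 9.34 and 9.04, and Dp1TybDyrk1a+/+/- hearts had 9.25, 9.0, 9.0, 8.96 and 8.96. Dp1Tyb hearts 1 to 4 lay above all Dp1TybDyrk1a+/+/- hearts, and both mutant groups overlapped WT.

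The difference of Nfatc4 was 0.26 in Dp1Tyb versus Dp1TybDyrk1a+/+/- (SE 0.0819, 1.2-fold, 95% interval 1.06 to 1.35, adjusted p = 0.107, exact permutation p = 0.0159). It was -0.19 in Dp1TybDyrk1a+/+/- versus WT (adjusted p = 0.364, exact permutation p = 0.0326) and 0.07 in Dp1Tyb versus WT (adjusted p = 0.727). The first of these differences was -0.0446, 0.381 and 0.385 within lanes 3, 6 and 7, so lane 3 went the other way. With the Y-linked mean as a covariate this first difference was 0.184 (adjusted p = 0.492). With the mean of the cardiomyocyte markers as a covariate it was 0.153 (adjusted p = 0.409), and with that of the 6 fibroblast and cushion mesenchyme markers, which ran from 12.5 to 12.65 in Dp1Tyb and from 12.31 to 12.72 in Dp1TybDyrk1a+/+/-, it was 0.157 (adjusted p = 0.165). The part of these markers in the difference was not tested beyond this. The mean of the 7 endocardial and endothelial markers, of which 0 were called in any comparison, ran from 11.38 to 11.54 in WT, from 11.42 to 11.58 in Dp1Tyb and from 11.49 to 11.53 in Dp1TybDyrk1a+/+/-.

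Nfatc1, the endocardial factor on chromosome 18, had log2 values from 10.01 to 10.13 in WT, from 10.06 to 10.21 in Dp1Tyb and from 10.07 to 10.37 in Dp1TybDyrk1a+/+/-. Its differences from WT were 0.05 (adjusted p = 0.621) in Dp1Tyb and 0.09 (adjusted p = 0.414, exact permutation p = 0.0386) in Dp1TybDyrk1a+/+/-, where heart 2 alone stood at 10.37. Without that heart the latter difference was 0.0425 (adjusted p = 0.537), and within lanes 3, 6 and 7 it was 0.00616, 0.0115 and 0.148. Nfatc3 (chr8:106058818-106130537, plus strand), also called NFAT4, had a difference of -0.06 in Dp1Tyb versus WT (adjusted p = 0.548, exact permutation p = 0.026). All 5 Dp1Tyb hearts lay under its WT median, and 2 of them under every WT heart. Its difference was 0.02 in Dp1TybDyrk1a+/+/- versus WT (adjusted p = 0.879) and -0.08 in Dp1Tyb versus Dp1TybDyrk1a+/+/- (adjusted p = 0.366). Dp1TybDyrk1a+/+/- heart 2 held the highest Nfatc3 value too, 11.08, against 10.75 to 10.8 in the other 4. Without that heart the Nfatc3 difference between the mutant genotypes was -0.0235 (adjusted p = 0.762), and within lanes 3, 6 and 7 it was -0.0281, 0.00346 and -0.137.

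Levels of different genes were compared as normalized counts per kilobase of exon. Rcan1 was the highest of the 10 in WT at 699 ± 47 (SD, n = 10), followed by Ppp3r1 at 666 ± 17, and the WT ranges of these genes overlapped. Rcan2 followed at 319 ± 27, then Ppp3cb at 223 ± 4.7 and Ppp3ca at 209 ± 7.5, which overlapped each other. Nfatc1 at 141 ± 4.0 was the highest NFATc factor, above Nfatc3 at 120 ± 5.5. Rcan3 at 91.1 ± 3.8 and Nfatc4 at 80.9 ± 8.0 overlapped, and Nfatc2 was lowest at 46.4 ± 3.3. Other neighbours in this order had WT ranges that did not overlap. Rcan1 thus stood 2.19 times above Rcan2 and 7.67 times above Rcan3 per kilobase, and Ppp3r1 3.19 times above Ppp3ca. Before division by exon length, Ppp3r1 and Ppp3ca had WT means of 2270 and 2340 normalized counts. The ratio of Ppp3r1 to Ppp3ca thus follows their exon lengths of 3.4 and 11.2 kilobases. These lengths take in all annotated exons, and the transcripts expressed were not measured. In Dp1Tyb and Dp1TybDyrk1a+/+/-, Rcan1 stood at 882 ± 53 and 910 ± 53 (n = 5 each), above Ppp3r1 at 659 ± 14 and 679 ± 19.

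**Figure D4:**
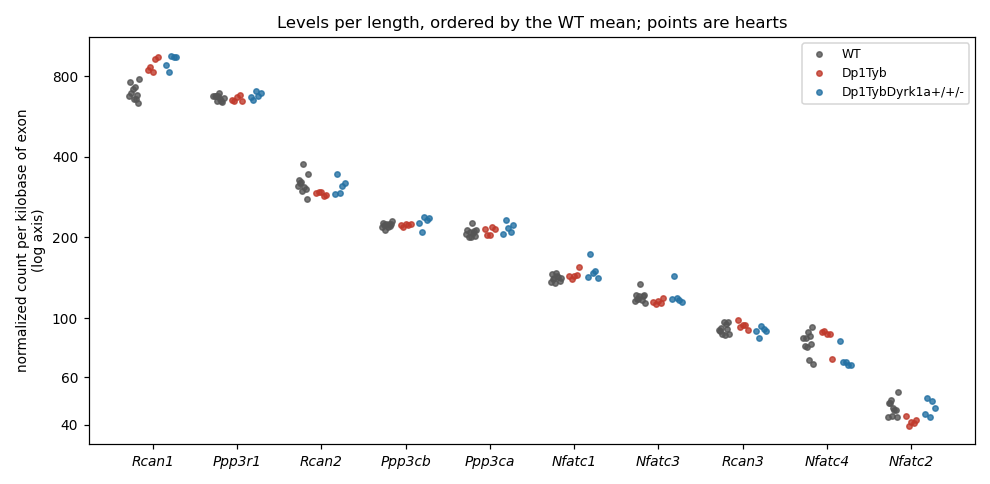
Normalized count per kilobase of exon (vertical axis, log scale) of the 10 genes in each heart, ordered by the WT mean (horizontal axis) and coloured by genotype. Rcan1 and Ppp3r1 overlap in WT at means of 699 and 666, and Rcan1 lies above Ppp3r1 in the mutant hearts.

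The rest of the pathway was followed through 9 lists with 61 genes, of which 59 were tested. Ppp3r2, the testis form of the B subunit, and Ptgs2 did not pass the filter. In Dp1Tyb versus WT 4 of the 59 were called increased (Dyrk1a, Orai2, Orai3, Ctsk) and 2 decreased (Dyrk1b, Xpo1), beside 1.81% and 1.27% of all genes tested. In Dp1TybDyrk1a+/+/- versus WT Dyrk1a was called increased and 0 of the 59 decreased, beside 0.627% and 0.0849% of all genes. Dyrk1a is itself a three-copy gene, and without it 3 genes were called increased in Dp1Tyb and 0 in Dp1TybDyrk1a+/+/- versus WT. In Dp1Tyb versus Dp1TybDyrk1a+/+/- Orai2 was called increased and Xpo1 decreased, beside 0.425% and 0.738% of all genes. With both mutant genotypes averaged against WT, Dyrk1a and Ctsk were called increased and 0 of the 59 decreased, beside 1.12% and 0.235% of all genes.

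Of the 14 genes for calcium entry and release, 2 rose in Dp1Tyb. Orai2 and Orai3 encode plasma membrane channels for store-operated calcium entry. Orai2 had a mean log2 value of 6.53 ± 0.042 in WT, 6.64 ± 0.039 in Dp1Tyb and 6.50 ± 0.037 in Dp1TybDyrk1a+/+/-, and the Dp1Tyb difference was 0.11 from WT (SE 0.0245, adjusted p = 0.0121) and 0.14 from Dp1TybDyrk1a+/+/- (adjusted p = 0.0218). Orai3 was at 7.87 ± 0.036 in WT, 7.97 ± 0.051 in Dp1Tyb and 7.86 ± 0.033 in Dp1TybDyrk1a+/+/-, with a difference of 0.10 from WT (adjusted p = 0.02) and 0.11 from Dp1TybDyrk1a+/+/- (adjusted p = 0.0594). Without Dp1Tyb heart 1, 2 or 4 the adjusted p of Orai3 against WT was between 0.0528 and 0.085, and without Dp1Tyb heart 1, 2 or 3 or Dp1TybDyrk1a+/+/- heart 3 that of Orai2 against Dp1TybDyrk1a+/+/- was between 0.0548 and 0.0663. This Orai2 call was lost in 9 of 32 alternatives in all, the others being quantile normalization (adjusted p = 0.0505), lane (0.0754), the Y-linked mean (0.143) or the cardiomyocyte markers (0.0933) as a covariate, and the hearts of the compared groups alone (0.132). The median over the list was 0.023 in Dp1Tyb versus WT.

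Of the 11 NFAT kinases, Dyrk1a rose and Dyrk1b fell. Dyrk1b, the close relative of Dyrk1a, was at 8.37 ± 0.048 in WT, 8.24 ± 0.032 in Dp1Tyb and 8.36 ± 0.075 in Dp1TybDyrk1a+/+/-, and differed by -0.14 in Dp1Tyb versus WT (SE 0.0301, adjusted p = 0.0125) and by -0.12 in Dp1Tyb versus Dp1TybDyrk1a+/+/- (adjusted p = 0.0824). The median over the kinases was -0.0084. Xpo1, the exportin that carries NFATc proteins and many others out of the nucleus, was at 12.46 ± 0.028 in WT, 12.38 ± 0.033 in Dp1Tyb and 12.48 ± 0.020 in Dp1TybDyrk1a+/+/-. Its Dp1Tyb difference was -0.08 from WT (adjusted p = 0.0385) and -0.10 from Dp1TybDyrk1a+/+/- (adjusted p = 0.0408). The calls of Xpo1 were lost in 17 of 33 alternatives against WT, among them leaving out Dp1Tyb heart 1, 2, 3 or 4 or WT heart 1, 4, 5, 7, 8, 9 or 10, and in 19 of 33 against Dp1TybDyrk1a+/+/-. With the Y-linked mean as a covariate the adjusted p against WT was 0.132 for Xpo1, 0.0813 for Dyrk1b, 0.0837 for Orai2 and 0.0537 for Orai3.

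Of the 10 genes listed as responsive to calcineurin and NFAT, 9 were tested and 1 was called. The list sets no cell type and no direction of response for its genes. Ctsk, which encodes the protease cathepsin K, was at 7.95 ± 0.045 in WT, 8.17 ± 0.11 in Dp1Tyb and 8.01 ± 0.068 in Dp1TybDyrk1a+/+/-. It differed by 0.22 in Dp1Tyb versus WT (SE 0.0387, adjusted p = 0.00207, at most 0.018 in 33 of 33 alternatives), by 0.06 in Dp1TybDyrk1a+/+/- versus WT (adjusted p = 0.628) and by 0.16 in Dp1Tyb versus Dp1TybDyrk1a+/+/- (adjusted p = 0.0786). The mean of the 6 fibroblast and cushion mesenchyme markers, of which 0 were called, ran from 12.5 to 12.65 in Dp1Tyb, from 12.24 to 12.59 in WT and from 12.31 to 12.72 in Dp1TybDyrk1a+/+/-, and its part in the change of Ctsk was not tested beyond a fit with that mean as a covariate, which gave 0.217 (adjusted p = 0.00563). With both mutant genotypes averaged against WT, Ctsk was called too (0.14, limma adjusted p = 0.0229). That call was lost in 1 of 32 alternatives, the Y-linked mean as a covariate (adjusted p = 0.0521). The other 8 tested genes of this list did not pass in any comparison, and the median over the list was 0.05 in Dp1Tyb versus WT. None of the 3 calmodulins, the 9 genes listed as calcineurin inhibitors and anchors, the 9 NFAT partner transcription factors, the remaining catalytic subunit gene Ppp3cc or the tonicity factor Nfat5 was called in any comparison. Their list medians in Dp1Tyb versus WT were -0.015, -0.0062, 0.019, -0.02 and -0.081.

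**Figure D5:**
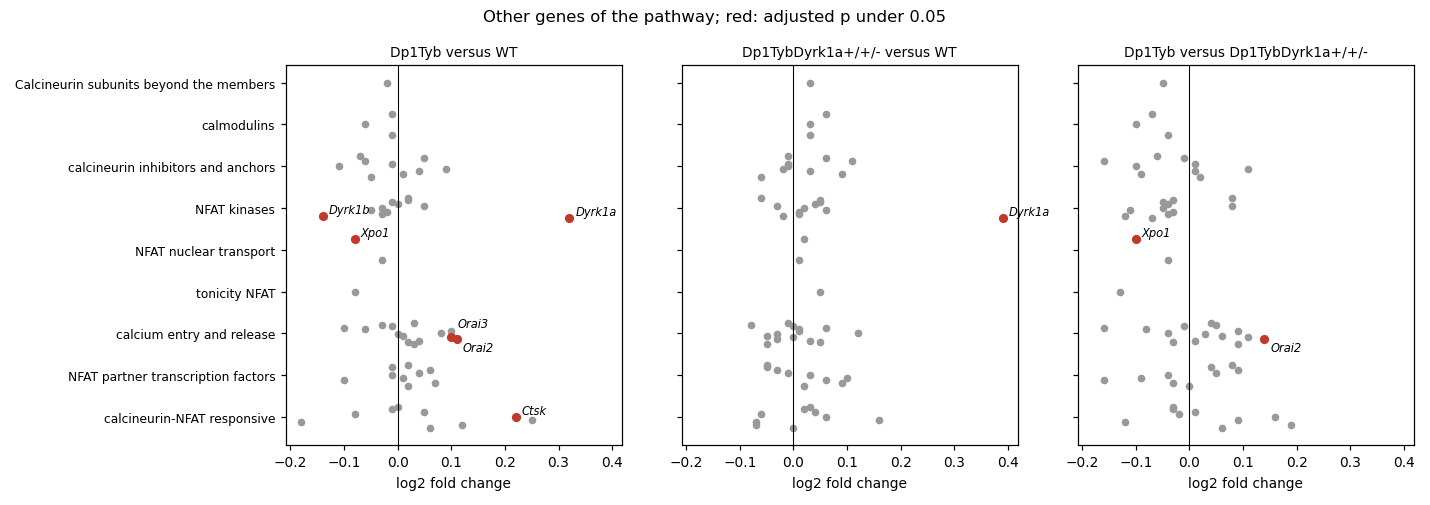
Log2 fold change (horizontal axes) of the 59 tested genes of the 9 pathway lists (rows) in the 3 comparisons, in red and named where the limma adjusted p was under 0.05. Of the 59 genes, 6 are red in Dp1Tyb versus WT, 1 in Dp1TybDyrk1a+/+/- versus WT and 2 in Dp1Tyb versus Dp1TybDyrk1a+/+/-.

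The genes most like Rcan1 over the 20 hearts were other three-copy genes. By Pearson's r the first 5 were Sh3bgr (0.96), Atp5po, Ifngr2, Cxadr and Mrps6 (0.94 each), which share the copy number of Rcan1. Over deviations from the genotype means, which remove the duplication, the first 5 were Actc1 (0.92), Lmcd1 (0.91), Popdc2, Celf1 and Trim55 (0.90 each), none of them a three-copy gene. Actc1 encodes cardiac actin, and Popdc2 and Trim55 encode proteins of striated muscle. Lmcd1 is on the list labelled calcineurin inhibitors and anchors, which also takes in other regulators. What Lmcd1 does to calcineurin was not measured here. Celf1 is on none of the lists. Over the same deviations, r of Rcan1 with the mean of the 6 cardiomyocyte markers was 0.33 (permutation test, adjusted p = 0.396). Within lanes 3, 6 and 7 it was 0.64, 0.55 and 0.09. Among these markers Ttn varied most and so weighs most in their mean. These are descriptions over 20 hearts that share 1 normalization.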

How the data were processed

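RNA from 20 E13.5 mouse hearts was made into libraries with the KAPA mRNA HyperPrep kit and sequenced on an Illumina HiSeq 2500, per the labels. The submitters' processing notes name Trimmomatic 0.36, STAR 2.5.2a, RSEM 1.2.31, DESeq2 and the build GRCm38. The strand setting, the annotation and the transformation are not given in the sources used here. The authors deposited log2 normalized counts for 48795 Ensembl genes in each heart, normalized for library size over the whole series, in which 19473 genes are listed at 0 in every heart. Low values vary little around each gene's mean, which understates fold changes of low genes. Read totals are unknown, so errors come from the spread of the hearts alone.

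Groups were taken from the genotype labels. The main test was limma 3.58.1 (R 4.3.3) on genes averaging 10 or more normalized counts (2 to the mean log2 value), with lmFit, a trended eBayes, genotype means over all 20 hearts, Benjamini-Hochberg adjustment over 15304 genes and a threshold of 0.05. The authors' own test, DESeq2, needs counts and was not run. Exact two-sided permutation tests used scipy 1.17.1, and their p-values were not adjusted for the number of tests. The fit was tested on simulated data. The p-values measure the spread between hearts, each labelled as a separate sample. Gene names and exon lengths came from GENCODE M39 and coordinates and promoters from RefSeq on GRCm38.p6. Exon lengths are unions of annotated exons, and reads shared between near-identical or overlapping genes were left as deposited. The members and lists were chosen with earlier results of these data known. Named were all members, the called or filtered-out genes of the pathway lists, markers, the 5 genes most like Rcan1 by each measure, and three-copy genes next to Rcan1 in rank. Alternatives were other filters, normalizations, limma settings, covariates, samples and lanes.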

Additional observations from a re-analysis of the deposited data

Results flagged for a closer look

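Of 30 groups (10 genes in 3 genotypes), 5 had a heart whose gap to its nearest neighbour was large for the range of the group by Dixon's test. Chance gives about 1 in 20 groups, and no explanation was tested. WT heart 6 had the highest WT value of Ppp3ca, 11.3 against 11.22 for the next heart, and of Nfatc3, 10.97 against 10.84. Dp1TybDyrk1a+/+/- heart 2 had the highest Nfatc3 value of its group, 11.08 against 10.8. For Nfatc4, Dp1Tyb heart 5 was the lowest of its group at 9.04 against 9.34, and Dp1TybDyrk1a+/+/- heart 1 was the highest of its group at 9.25 against 9.0. Without Dp1TybDyrk1a+/+/- heart 1 the difference of Nfatc4 between Dp1Tyb and Dp1TybDyrk1a+/+/- was 0.314, and its limma adjusted p, 0.05 when rounded, was barely under the threshold.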

How the results depend on the processing

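Rcan1 kept its direction and its call in every alternative with a test, with log2 fold changes of 0.21 to 0.406 in Dp1Tyb versus WT and 0.319 to 0.449 in Dp1TybDyrk1a+/+/- versus WT, within lanes included. Depth is unknown and groups of 5 hearts limit the rest. The cause of the following changes was not tested. In Dp1Tyb versus WT 2 of the 10 genes were called (Rcan1 and Nfatc2) with a minimum normalized count of 100, with weights per heart, with lane as a covariate and with the hearts of the compared groups alone. Over all genes these settings called 430, 1422, 461 and 779 in the same order, against 471 in the main test. The minimum of 100 left fewer genes to test. Leaving out 1 heart gave 1 to 2 in Dp1Tyb versus WT, with Nfatc2 called without WT heart 1, 5 or 9 or Dp1TybDyrk1a+/+/- heart 2 or 3. With weights per heart 2 genes were called in Dp1TybDyrk1a+/+/- versus WT (Rcan1, Ppp3cb) and 2 in Dp1Tyb versus Dp1TybDyrk1a+/+/- (Ppp3cb, Nfatc4), and leaving out 1 heart gave 0 to 1 in the latter. With both mutant genotypes against WT, Rcan1 alone was called throughout. Calls over all genes ran from 214 (Y-linked mean as a covariate) to 1422 (weights) around 471 in Dp1Tyb versus WT, from 93 (lane) to 341 (weights) around 109 in Dp1TybDyrk1a+/+/- versus WT, and from 3 (compared groups alone) to 1247 (weights) around 178 between the mutants. Leaving out 1 heart gave 266 to 959, 88 to 158 and 30 to 404. With the Y-linked mean as a covariate 9 genes were called between the mutants.

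With a minimum of 100 the rank percentile of Rcan1 among three-copy genes went from 35.8 to 46.5 in Dp1Tyb, from 27.4 to 36.6 in Dp1TybDyrk1a+/+/- and from 36.8 to 49.3 in both, over fewer genes. Signs that turned belonged to differences that had not passed the threshold. In Dp1Tyb versus WT, Ppp3cb was -0.00301 with median centring, -0.0048 with the Y-linked covariate and -0.00498 with the cardiomyocyte marker covariate, and Nfatc4 was -0.00177 and -0.0254 with the cardiomyocyte and fibroblast marker covariates. These marker covariates and the alternatives for the pathway genes were chosen after seeing the data. In Dp1TybDyrk1a+/+/- versus WT, Nfatc2 was -0.014 with weights, -0.0335 with lane, -0.0011 with the Y-linked covariate and -0.0261 and -0.00127 with the marker covariates, and Nfatc3 was -0.0178 with weights. Between the mutants Nfatc1 was 0.00315 with the cardiomyocyte and Rcan1 0.0336 with the fibroblast covariate. Leaving out 1 heart gave -0.00473 to 0.00753 for Ppp3cb in Dp1Tyb versus WT, -0.0277 to 0.0309 for Nfatc2 and -0.0373 to 0.045 for Nfatc3 in Dp1TybDyrk1a+/+/- versus WT, -0.0726 to 0.00411 for Nfatc1 between the mutants, and -3.93e-05 to 0.0134 for Ppp3r1 in both versus WT. No paired analysis was possible because the labels give no replicate numbers or litters that tie hearts across genotypes.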

Other observations

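The spread of the 10 genes within genotypes was set beside that of 8 lists of cell type markers, as Pearson's r and Spearman's rho over deviations of the 20 hearts from their genotype means. Each marker mean is unscaled, so genes that vary more weigh more in it. In WT, Dp1Tyb and Dp1TybDyrk1a+/+/- the SD of Myh11 was 0.62, 0.53 and 1.1, against at most 0.13 for Acta2, Tagln and Cnn1. That of Ttn was 0.46, 0.31 and 0.66, against at most 0.19 for the other cardiomyocyte markers. Hearts were permuted within genotype 100000 times, and of the 80 relations 20 had a Benjamini-Hochberg adjusted p under 0.05 for r. The share of such relations over all genes was not computed. Whether 20 of 80 is more than other genes would give is therefore unknown. The choice of these lists was made with earlier results known, and no cause was tested.

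Rcan1 went down as the 4 neuron and glia markers went up (r = -0.83, rho = -0.86, permutation p = 1e-05 for each, the smallest these permutations can give, adjusted p = 0.000267 for r and 0.0004 for rho). Within lanes 3, 6 and 7 (7, 7 and 6 hearts) r was -0.77, -0.86 and -0.93, and it was -0.78 without the 2 hearts farthest from the median of the markers. Against the 6 fibroblast and cushion mesenchyme markers r was -0.79 and rho -0.82 (permutation p = 1e-05 for each), with -0.78, -0.73 and -0.95 within lanes and -0.70 without the 2 farthest hearts. Against the cardiomyocyte markers r was 0.33 and rho 0.32 (permutation p = 0.188 and 0.195, adjusted p = 0.396 and 0.391), with 0.64, 0.55 and 0.09 within lanes and 0.41 without the 2 farthest hearts. Rcan1 also had r of -0.69 with the smooth muscle markers (permutation test, adjusted p = 0.00811), in whose mean Myh11 weighs most. It was -0.65 with macrophage markers (adjusted p = 0.021) and 0.62 with endocardial and endothelial markers (adjusted p = 0.0299), so its relations were not confined to a single cell type.

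Nfatc4 had the opposite sign to the 7 endocardial and endothelial markers (r = -0.82, permutation p = 1e-05, rho = -0.73, permutation p = 0.00051, adjusted p = 0.000267 and 0.0088). Within lanes r was -0.84, -0.83 and -0.72, and it was -0.78 without the 2 farthest hearts. Nfatc4 also had r of 0.76 with macrophage markers (permutation test, adjusted p = 0.00288) and 0.68 with neuron and glia markers (adjusted p = 0.021). It was 0.67 with fibroblast and cushion mesenchyme and -0.67 with cardiomyocyte markers (adjusted p = 0.0185 for each), so these relations were not confined to a single cell type. Nfatc2 went up with the 6 cardiomyocyte markers (r = 0.76, permutation p = 0.0003, rho = 0.70, permutation p = 0.00149, adjusted p = 0.004 and 0.0149), with 0.69, 0.44 and 0.77 within lanes and 0.54 without the 2 farthest hearts. Against the endocardial and endothelial markers r of Nfatc2 was 0.59 (permutation test, adjusted p = 0.021). These relations are over whole hearts, and the cells in which each gene was expressed were not measured.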
